A study of Mus musculus with 22 samples.

Results

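The genes described here are 8 transcripts that mark Schwann cells and the nerves they wrap, measured in brown adipose tissue (BAT) of CPEB2-WT and CPEB2-KO mice. They are *Mbp*, *Pmp22*, *Sox10*, *S100b*, *Cdh19*, *Ncam1*, *L1cam* and *Ngfr*, chosen by name, and they were found under their Ensembl identifiers in both count tables, 8 of 55487 genes. All 8 passed edgeR's filter on low counts in both cohorts. No measured value entered their choice, but they were chosen with earlier results of these data known.

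BAT RNA of 22 mice was sequenced as mRNA libraries, each from a single mouse. Of these, 5 WT and 5 KO mice were untreated, given as male and 21 to 25 weeks old. The authors food-deprived them for some hours before BAT was taken. The AAV cohort held 3 mice, also given as male, in each of 4 groups, and no such fast is stated for it. Mice of that cohort were injected at 16 weeks with 20000000000 vector genomes of recombinant AAV in 30 µl PBS, into the interscapular BAT, and BAT was taken 9 weeks later, at 25 weeks. Both genotypes received a virus carrying either GFP, the control, or flag-tagged PRDM16, and the groups are named by genotype and virus. The KO is a germline loss of *Cpeb2*, on a C57BL/6 background and from heterozygous crosses, so it is carried by nerve, Schwann cells and adipocytes alike. CPEB2 is an RNA-binding protein that controls translation, and PRDM16 is a transcriptional regulator of brown fat identity.

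Schwann cells are the glia of peripheral nerves. Some wrap single axons in myelin, and others, the Remak cells, hold bundles of thin unmyelinated axons such as the sympathetic fibres that drive heat production in BAT. SOX10 is the transcription factor that defines the lineage. MBP and PMP22 are myelin proteins, CDH19 is a cadherin of Schwann cells and their precursors, NCAM1 and L1CAM are adhesion molecules of axons and of non-myelinating Schwann cells, and NGFR is the low-affinity neurotrophin receptor p75. S100B is a calcium-binding protein of Schwann cells that brown adipocytes also make and release, where it promotes the growth of sympathetic axons. *Pmp22*, *Mbp* and *Ngfr* are also transcribed outside the nerve. In bulk tissue, fewer cells of a type and less RNA per cell cannot be told apart.

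The promoter windows of *S100b* and *Pmp22*, the most abundant members per kb of exon, are shown. Each member is counted as a whole gene, whichever start its transcripts use. Windows from the RefSeq promoter table of GRCm38.p6 were used for 4 of the 8 members, *S100b*, *Pmp22*, *L1cam* and *Ngfr*. No window was used for the other members, which does not show that the table lacks them. *Pmp22* has 4 starts in the table, of which the first and second are shown. Each line gives 250 bases before a start, 5′ to 3′, and capitals mark the GC-box word GGGCGG on either strand, which reads CCGCCC on the other.
*S100b*, chr10:76253586-76253835, plus strand: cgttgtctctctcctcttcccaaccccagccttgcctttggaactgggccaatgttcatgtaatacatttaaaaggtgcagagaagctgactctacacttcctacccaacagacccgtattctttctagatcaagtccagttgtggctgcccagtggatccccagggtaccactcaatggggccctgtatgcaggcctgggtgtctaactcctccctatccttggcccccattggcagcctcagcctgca
*Pmp22*, first start, chr11:63128732-63128981, plus strand: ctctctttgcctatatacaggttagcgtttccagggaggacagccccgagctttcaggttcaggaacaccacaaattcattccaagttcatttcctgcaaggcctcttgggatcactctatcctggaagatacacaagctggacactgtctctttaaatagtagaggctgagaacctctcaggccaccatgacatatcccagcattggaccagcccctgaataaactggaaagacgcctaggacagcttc
*Pmp22*, second start, chr11:63131207-63131456, plus strand: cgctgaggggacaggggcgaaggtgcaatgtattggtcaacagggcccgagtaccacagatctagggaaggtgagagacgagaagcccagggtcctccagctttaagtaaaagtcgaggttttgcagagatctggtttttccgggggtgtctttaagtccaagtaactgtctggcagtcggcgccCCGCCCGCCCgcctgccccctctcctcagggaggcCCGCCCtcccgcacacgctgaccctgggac
The *S100b* window was 53.6% G or C with 2 CpG and held no GGGCGG. The first *Pmp22* window was 48.8% G or C with 3 CpG and none of the words searched, whereas the second was 61.2% G or C with 14 CpG and 3 GGGCGG, of which a pair overlaps. The windows of the third and the fourth start, not printed, lie further downstream, with 64.8% and 73.6% G or C, 14 and 27 CpG, and 0 and 3 GGGCGG, and the fourth overlaps exon bases. The *Ngfr* window, also not printed, held 4 GGGCGG at 70.4% G or C. The *L1cam* windows held 1 each at 69.6% and 63.2% G or C. Of 32851 promoter windows of the same length, 32.7% held GGGCGG, and the median G and C content was 52.4%. The words ACAAAG and ACAATG, which SOX proteins can bind, and TATAAA were searched on both strands and were in none of the 3 printed windows. They were in 16.5%, 10.7% and 12.4% of all windows. The counts do not separate transcripts by start, so the *Pmp22* values below are the sum over its starts.

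Untreated libraries held 55320927 to 162721202 counts each, and AAV libraries 61636889 to 143005309. Levels are CPM, counts scaled to a common library size after TMM normalization over the tested genes, and 3 counts were worth at most 0.0596 CPM. *Cpeb2* was read first. In the AAV cohort it was 4.33 to 5.55 CPM in KO and 10.5 to 14.0 CPM in WT, and *Prdm16* was 23.9 to 40.2 CPM with AAV-GFP and 45.9 to 128 CPM with AAV-PRDM16. In the untreated cohort, mouse 1 labelled KO had 11.7 CPM of *Cpeb2*, within the WT range of 7.69 to 14.3, and the other 4 had 2.10 to 5.78. Against the labels, 6 untreated libraries (2 WT, 4 labelled KO) held at most 1.17 CPM of 4 Y-linked transcripts and at least 104 CPM of *Xist*. Skeletal muscle transcripts were spread widely there too, with 12 genes summing to 58.4 to 3437 CPM in WT and 44.3 to 7025 CPM in the libraries labelled KO, against 28.3 to 129 CPM in the AAV cohort. The animal numbers in the column names of WT mice 1 and 2 lie below those of the other 8. Untreated KO is therefore written as the libraries labelled KO, and the untreated log2 fold changes are also given without mouse 1 labelled KO, without WT mice 1 and 2, and with Y-linked RNA in the model.

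**Figure D1:**
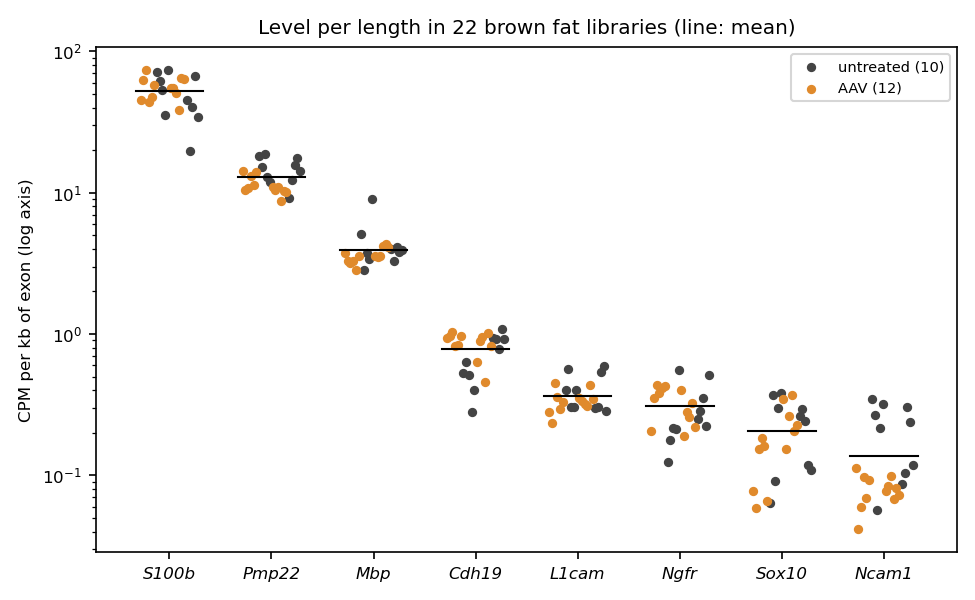
Level of each gene per kb of exon (CPM per kb, log axis) in 22 libraries, with untreated and AAV libraries in different colours and a line at the mean. *S100b* (mean 52.8), *Pmp22* (12.8) and *Mbp* (3.93) lie above the other 5 genes, whose means run from 0.137 to 0.789.

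All 8 genes had counts in all 22 libraries. Per kb of exon, *S100b* was the most abundant (52.8 ± 14.2 CPM per kb, SD over 22 libraries), followed by *Pmp22* (12.8 ± 2.90) and *Mbp* (3.93 ± 1.25). *Cdh19* (0.789 ± 0.227), *L1cam* (0.366 ± 0.0976), *Ngfr* (0.309 ± 0.115), *Sox10* (0.205 ± 0.108) and *Ncam1* (0.137 ± 0.0959) formed a lower group. *S100b* lay above *Pmp22*, *Pmp22* above *Mbp*, and *Mbp* above *Cdh19* in 22 of 22 libraries each, although the ranges of *Pmp22* and *Mbp* overlapped. *Cdh19* exceeded *L1cam* in 21 libraries. The next neighbours, *L1cam* and *Ngfr*, *Ngfr* and *Sox10*, and *Sox10* and *Ncam1*, kept their order in 15, 16 and 16 of 22 libraries, so their ranges overlapped and the order among them was not firm. *Erbb3*, the neuregulin receptor of Schwann cells, was also present at a low level, with a mean of 3.13 CPM over the 22 libraries. The brown adipocyte list, which includes *Ucp1*, was measured in full (8 of 8 genes) and summed to 3901 to 13361 CPM, as the tissue label asks.

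**Figure D2:**
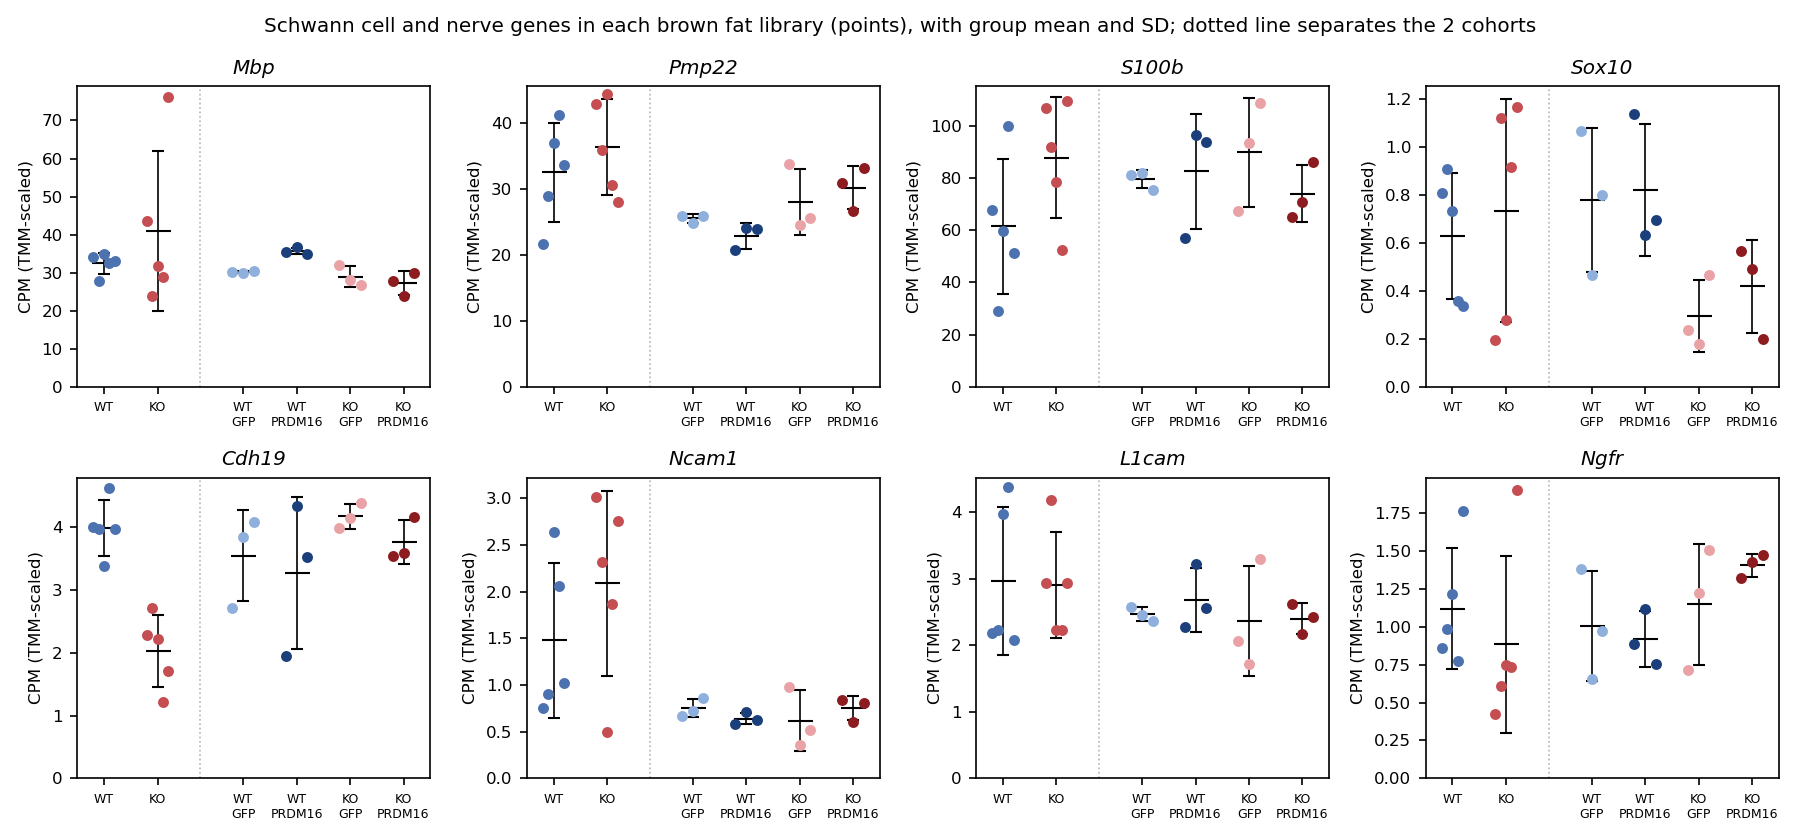
CPM of each gene in every library (points), by group, with the group mean and SD (bars). The dotted line separates the untreated from the AAV cohort. WT and KO points do not overlap for *Cdh19* in untreated mice, *Sox10* with either virus, and *Mbp*, *Pmp22* and *Ngfr* with AAV-PRDM16.

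The myelin genes come first. *Mbp* (ENSMUSG00000041607) encodes the protein that compacts the myelin sheath, and its locus also gives golli transcripts in other cells. In GRCm38 it spans chromosome 18, plus strand, from 82475146 to 82585637, with 16 annotated transcripts that the gene counts do not separate. Untreated WT mice 1 to 5 had 34.1, 27.9, 34.9, 32.5 and 33.1 CPM, and those labelled KO had 43.5, 23.9, 31.8, 28.9 and 76.2 CPM. The groups overlapped, and mouse 5 labelled KO stood far above the rest. In the AAV cohort, AAV-GFP mice had 30.2, 29.8 and 30.4 CPM as WT against 32.0, 28 and 26.8 CPM as KO, which overlap. With AAV-PRDM16, WT mice had 35.5, 36.6 and 35.0 CPM and KO mice 27.7, 23.9 and 30.0 CPM. Here every KO mouse lay below every WT mouse, with 35.7 ± 0.829 CPM in WT and 27.2 ± 3.11 CPM in KO (SD, n = 3 each).

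*Pmp22* (ENSMUSG00000018217), a membrane protein of compact myelin that many other cells also express, spans chromosome 11, plus strand, from 63128982 to 63159547. Untreated WT mice had 21.7, 29.0, 37.0, 41.3 and 33.6 CPM, and those labelled KO had 42.9, 36.0, 44.4, 30.6 and 28 CPM. These groups overlapped. With AAV-GFP, WT mice had 25.9, 24.8 and 25.9 CPM against 33.7, 24.6 and 25.6 CPM in KO. With AAV-PRDM16, WT mice had 20.7, 24.0 and 24.0 CPM against 30.9, 26.6 and 33.1 CPM in KO. Under PRDM16 the KO mice thus lay above the WT mice without overlap, opposite in direction to *Mbp*.

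*Sox10* (ENSMUSG00000033006), the lineage transcription factor, spans chromosome 15, minus strand, from 79154908 to 79165240. It rested on 12 to 119 counts per library in the AAV cohort and 20 to 146 in the untreated cohort, so its values carry more counting error than those of the myelin genes. Untreated WT mice had 0.806, 0.907, 0.734, 0.358 and 0.335 CPM, and those labelled KO had 0.194, 1.12, 0.277, 0.913 and 1.17 CPM, so the groups overlapped. With AAV-GFP, WT mice had 1.07, 0.468 and 0.799 CPM against 0.238, 0.179 and 0.465 CPM in KO. With AAV-PRDM16, they had 1.13, 0.630 and 0.694 CPM against 0.565, 0.490 and 0.200 CPM in KO. Within each virus every KO mouse lay below every WT mouse, though with AAV-GFP the closest values, 0.468 and 0.465 CPM, were almost the same.

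*S100b* (ENSMUSG00000033208) spans chromosome 10, plus strand, from 76253853 to 76261159. Untreated WT mice had 67.6, 29.1, 59.6, 100.1 and 51.2 CPM, and those labelled KO had 107, 91.7, 78.6, 52.6 and 109.6 CPM. The mean was higher in the libraries labelled KO (87.8 ± 23.3 against 61.5 ± 25.9 CPM, SD, n = 5 each), but the groups overlapped. Its AAV group means ran from 74.0 ± 11 CPM in KO + AAV-PRDM16 to 89.8 ± 20.9 CPM in KO + AAV-GFP (SD, n = 3), and all of these groups overlapped.

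*Cdh19* (ENSMUSG00000047216), the Schwann cell cadherin, spans chromosome 1, minus strand, from 110888326 to 110977584. Untreated WT mice had 3.99, 3.97, 3.38, 4.62 and 3.97 CPM, and those labelled KO had 2.28, 2.71, 2.21, 1.21 and 1.72 CPM. Every library labelled KO lay below every WT library. With AAV-GFP, WT mice had 2.72, 3.84 and 4.08 CPM against 3.99, 4.15 and 4.39 CPM in KO. With AAV-PRDM16, these values were 1.95, 4.34 and 3.53 CPM against 3.54, 3.58 and 4.16 CPM. There the genotypes overlapped and the KO means were the higher ones.

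*L1cam* (ENSMUSG00000031391, minus strand of chromosome X, from 73853778 to 73896105) and *Ncam1* (ENSMUSG00000039542, minus strand of chromosome 9, from 49502136 to 49798925) encode immunoglobulin-type adhesion molecules. *L1cam* ran from 2.08 to 4.38 CPM in untreated WT, from 2.22 to 4.18 CPM in the libraries labelled KO, and from 1.72 to 3.29 CPM over the AAV cohort. Neither genotype nor virus separated its libraries. *Ncam1* ran from 0.753 to 2.64 CPM in untreated WT and from 0.496 to 3.01 CPM in the libraries labelled KO, and from 0.359 to 0.983 CPM over the AAV cohort. It is also made by denervated and regenerating muscle. Across the 10 untreated libraries its r with 9 cell and nerve lists ran from -0.07 (brown adipocyte) to 0.77 (peripheral myelin), with 0.75 for white adipocyte, 0.72 each for T cell, macrophage and fibroblast, and 0.47 for skeletal muscle genes. For myelin genes permutation p was 0.0131 (adjusted 0.188 over 144 relations), with Spearman's rho = 0.82 (permutation p = 0.00575, adjusted 0.0963) and r = 0.75 without the 2 farthest libraries. White adipocyte genes had rho = 0.82 (permutation p = 0.00548, adjusted 0.0963) and r = 0.98 without the 2 farthest libraries. Macrophage genes had rho = 0.84 (permutation p = 0.00371, adjusted 0.0963) and r = 0.70 without the 2 farthest, so the relation was not particular to myelin genes. For muscle genes permutation p was 0.174 (adjusted 0.457), with rho = 0.54 (permutation p = 0.115, adjusted 0.437) and r = 0.23 without the 2 farthest libraries. In the AAV cohort r was -0.11 with myelin genes and 0.48 with muscle genes, the latter 0.80 with each group centred on its mean. None of these relations passed adjustment. *Ngfr* (ENSMUSG00000000120, minus strand of chromosome 11, from 95568818 to 95587735) had 0.858, 0.987, 1.22, 0.771 and 1.76 CPM in untreated WT and 0.427, 0.611, 0.749, 0.735 and 1.90 CPM in those labelled KO. Mouse 5 was the highest of its group in both. With AAV-GFP, *Ngfr* had 1.38, 0.658 and 0.975 CPM in WT against 0.715, 1.22 and 1.51 CPM in KO. With AAV-PRDM16, it had 0.889, 1.12 and 0.752 CPM in WT against 1.32, 1.42 and 1.47 CPM in KO. The KO mice lay above the WT mice with AAV-PRDM16, and overlapped with them with AAV-GFP.

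**Figure D3:**
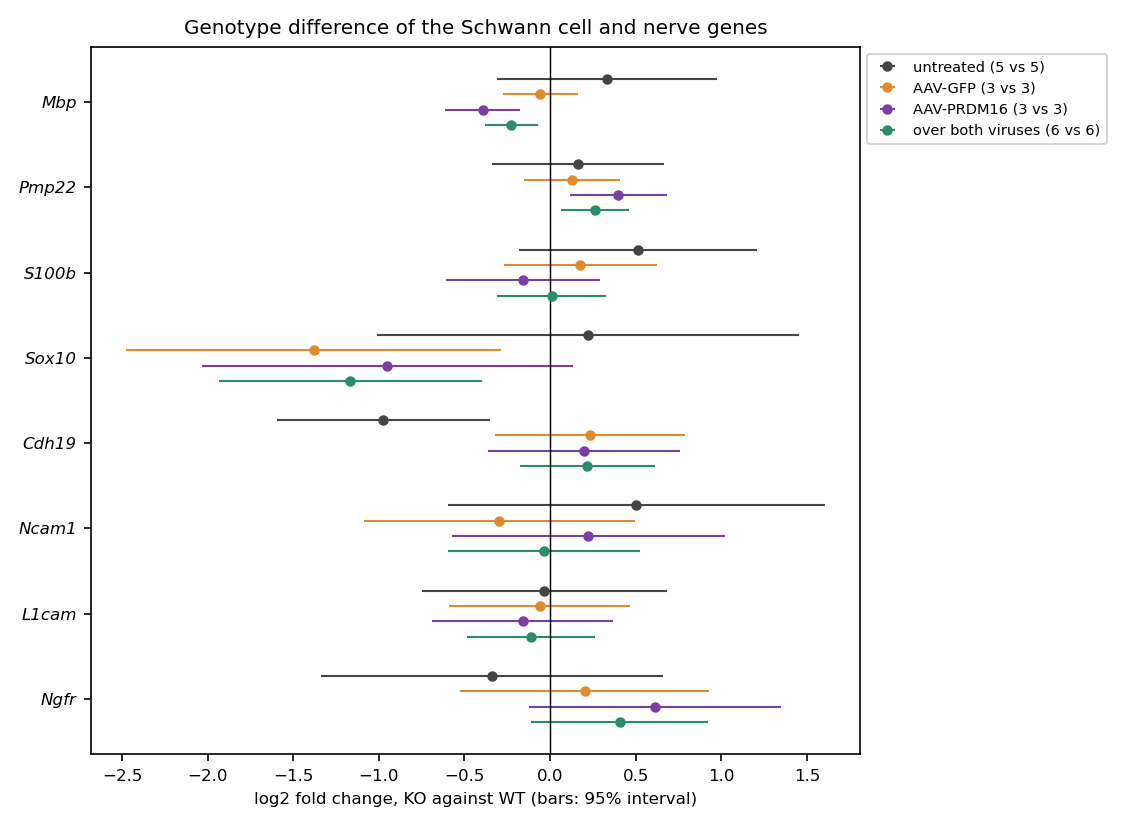
Log2 fold change of each gene, KO against WT, in untreated mice, with AAV-GFP, with AAV-PRDM16 and over both viruses (points, with 95% intervals from edgeR's quasi-likelihood fit). Intervals that leave out 0 are those of *Cdh19* in untreated mice (-0.97), *Sox10* with AAV-GFP (-1.38), *Mbp* (-0.39) and *Pmp22* (0.40) with AAV-PRDM16, and *Sox10*, *Mbp* and *Pmp22* over both viruses.

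The first comparison asked how loss of CPEB2 was related to these genes in untreated BAT. *Cdh19* was lower in the libraries labelled KO by edgeR's quasi-likelihood estimate of -0.97 on the log2 scale (SE 0.29, 95% interval -1.59 to -0.35, a fold of 0.509). Its adjusted p was 0.305 from edgeR, with Benjamini-Hochberg adjustment over 17869 genes, among which it ranked 111 by p. Mean levels were 3.99 ± 0.440 CPM (WT) and 2.03 ± 0.577 CPM (labelled KO; SD, n = 5 each). It was the 1 member of 8 at an unadjusted p under 0.05, where 15.9% of all tested genes were. It was also the 1 member whose groups did not overlap, where 1.4% of all tested genes did not. None of the 8 was called at an adjusted p of 0.05 by edgeR, nor by DESeq2, and neither was any other gene (0% by both tools). The log2 fold change of the other 7 members ran from -0.34 (*Ngfr*) to 0.51 (*S100b*), with *Mbp* at 0.33, *Ncam1* at 0.50, *Sox10* at 0.22, *Pmp22* at 0.16 and *L1cam* at -0.03. The 95% intervals of *S100b* (-0.18 to 1.21), *Mbp* (-0.31 to 0.98) and *Sox10* (-1.01 to 1.46) reach differences near or past 2-fold in at least 1 direction. The median over the 8 was 0.19 and that over all tested genes 0.036.

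The *Cdh19* difference kept its sign when the libraries in doubt were left out. It was -1.02 (SE 0.31, adjusted p = 0.160 from edgeR) without mouse 1 labelled KO, -0.92 (SE 0.33, adjusted p = 0.867) without WT mice 1 and 2, and -0.85 (SE 0.29, adjusted p = 0.576) when Y-linked RNA, present or not, was added to the model. Each of these had 0 of the 8 members called and 1 at an unadjusted p under 0.05. Other members moved more for their size. *Sox10* went from 0.22 to 0.47 without mouse 1 labelled KO, to 0.68 without WT mice 1 and 2 and to 0.42 with Y-linked RNA in the model. In the same order *Ncam1* went from 0.50 to 0.33, 0.17 and 0.43, *Pmp22* from 0.16 to 0.096, 0.012 and 0.11, and *Ngfr* from -0.34 to -0.16, -0.42 and -0.60. *Mbp* was at 0.31, 0.35 and 0.13, *S100b* at 0.43, 0.38 and 0.59, and *L1cam* at -0.037, -0.21 and 0.047. Apart from *L1cam*, the signs of these members held in all 3 settings. Mural cell genes went both ways in this comparison (3 of 8 lower, 5 higher, median 0.11, none called). Their summed level was 521 to 611 CPM in WT and 342 to 514 CPM among those labelled KO, but that sum is mostly *Rgs5*, a pericyte gene, and the list means in log2 CPM overlapped (4.12 to 4.80 in WT, 3.79 to 4.70 in those labelled KO). Macrophage genes were higher in 8 of 8 (median 0.62, none called). The part of these cells in the *Cdh19* result was not tested. *Mbp* and *Sox10* depended on 1 library there, since without mouse 5 labelled KO their log2 fold changes were -0.020 and -0.011.

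With AAV-GFP, *Sox10* was the member with the lowest p. It averaged 0.778 ± 0.300 CPM in WT and 0.294 ± 0.151 CPM in KO (SD, n = 3 each), a log2 fold change of -1.38 (SE 0.50, 95% interval -2.47 to -0.29, adjusted p = 0.441 from edgeR). It was 1 of 8 members at an unadjusted p under 0.05 (9.18% of all tested genes) and 1 of 8 whose groups did not overlap (13.4% of all tested genes). None was called by edgeR (0.0529% of all tested genes) or by DESeq2 (1.29%). The other members ran from -0.30 (*Ncam1*) to 0.24 (*Cdh19*), with *Mbp* at -0.06 and *Pmp22* at 0.13. Of the lists of other cells, macrophage genes were higher in KO in 8 of 8 (median 1.07, 34.5 to 62.1 CPM summed in WT and 75.8 to 188 CPM in KO) and fibroblast genes in 8 of 8 (median 0.60, 180 to 286 and 279 to 428 CPM). Brown adipocyte genes were lower in 7 of 8 (median -0.24, 3901 to 6010 and 4155 to 4663 CPM), and mural cell genes went both ways (5 higher, 3 lower). edgeR called none of these list genes, and DESeq2 called 4 macrophage genes and 1 brown adipocyte gene. Their part in the *Sox10* value was not tested.

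With AAV-PRDM16, the myelin pair was the member group with the lowest p. *Mbp* was lower in KO (log2 fold change -0.39, SE 0.10, 95% interval -0.61 to -0.17, adjusted p = 0.147 from edgeR). DESeq2 gave -0.39 with an adjusted p of 0.0246 and so called it, and limma-voom called it as well, at -0.41 and an adjusted p of 0.0262. *Pmp22* was higher in KO (0.40, SE 0.13, 95% interval 0.12 to 0.68, adjusted p = 0.216 from edgeR and 0.0957 from DESeq2). *Sox10* (-0.95, SE 0.50, adjusted p = 0.438 from edgeR) and *Ngfr* (0.61, SE 0.34, adjusted p = 0.465 from edgeR) also had groups that did not overlap. These are 4 of 8 members, where 22.8% of all tested genes did not overlap. At an unadjusted p under 0.05 there were 2 of 8 (13.7% of all tested genes), by edgeR's adjusted p 0 of 8 (0.0476%), and by DESeq2's 1 of 8 (3.28%). *S100b* (-0.16), *Cdh19* (0.20), *Ncam1* (0.22) and *L1cam* (-0.16) overlapped.

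Several lists of other cells also differed in level between genotypes in the mice given AAV-PRDM16, with none of their genes called by edgeR. Mural cell genes summed to 423 to 517 CPM in WT and 543 to 686 CPM in KO, endothelial genes to 467 to 525 and 537 to 672 CPM, fibroblast genes to 154 to 213 and 271 to 310 CPM, and macrophage genes to 24.9 to 29.9 and 53.3 to 57.2 CPM. Brown adipocyte genes were the other way round, at 5590 to 7259 CPM in WT and 4103 to 4989 CPM in KO. All 8 genes of each list were measured, and the macrophage and fibroblast genes were higher in 8 of 8, the mural cell and endothelial genes in 7 of 8, and the brown adipocyte genes lower in 8 of 8. Their part in the *Mbp*, *Pmp22* and *Ngfr* values was not tested.

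Over both viruses, with 6 KO and 6 WT mice, *Sox10* was at -1.17 (SE 0.35, 95% interval -1.93 to -0.40, adjusted p = 0.100 from edgeR), *Mbp* at -0.23 (SE 0.07, adjusted p = 0.109) and *Pmp22* at 0.26 (SE 0.09, adjusted p = 0.143). These 3 of 8 members had an unadjusted p under 0.05, where 18.3% of all tested genes did. DESeq2 called *Sox10* (-1.16, adjusted p = 0.0281), 1 of 8 members where it called 8.38% of all tested genes, and limma-voom called *Mbp* instead (-0.25, adjusted p = 0.0365). edgeR called none, where it called 2.18% of all tested genes. No member separated the 6 KO from the 6 WT mice, as 2.71% of all tested genes did. *Ngfr* was at 0.41 (95% interval -0.11 to 0.92), *Cdh19* at 0.22, *L1cam* at -0.11, *Ncam1* at -0.04 and *S100b* at 0.01, with an interval of -0.31 to 0.33 for *S100b*.

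The effect of PRDM16 delivery was compared within each genotype. In WT mice *Mbp* was higher with AAV-PRDM16 than with AAV-GFP (35.7 ± 0.829 against 30.1 ± 0.300 CPM, SD, n = 3 each; log2 fold change 0.25, SE 0.10, adjusted p = 0.619 from edgeR), and *Pmp22* was lower (22.9 ± 1.93 against 25.5 ± 0.640 CPM; -0.16, SE 0.13, adjusted p = 0.858 from edgeR). Both pairs of groups were free of overlap, 2 of 8 members where 14.2% of all tested genes were. *Mbp* was 1 of 8 at an unadjusted p under 0.05 (7.29% of all tested genes), and 0 of 8 were called by edgeR (0% of all tested genes) or DESeq2 (0.804%). In the same comparison macrophage genes were lower with AAV-PRDM16 in 8 of 8 (median -0.91, 34.5 to 62.1 CPM summed with AAV-GFP and 24.9 to 29.9 CPM with AAV-PRDM16) and T cell genes in 8 of 8 (median -3.15, 1.72 to 21.8 and 1.18 to 1.77 CPM). edgeR called none of them and DESeq2 called 6 of the T cell genes. Their part in the *Mbp* and *Pmp22* values was not tested. In KO mice none of the 8 separated the viruses (9.43% of all tested genes did) or had an unadjusted p under 0.05 (6.41%), and none was called by edgeR (0%) or DESeq2 (1.41%). The log2 fold changes there ran from -0.28 (*S100b*) to 0.51 (*Sox10*, 95% interval -0.59 to 1.60), with *Mbp* at -0.09.

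The genotype difference of *Mbp* between the viruses, tested as an interaction, was -0.33 (SE 0.14, 95% interval -0.64 to -0.02, adjusted p = 0.9998 from edgeR). It was 1 of 8 members at an unadjusted p under 0.05, where 3.19% of all tested genes were, and none was called by edgeR (0% of all tested genes) or DESeq2 (0.00529%). For *Sox10* the interaction was 0.43 (95% interval -1.09 to 1.95), which spans both signs.

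Rescue was read by setting KO + AAV-PRDM16 against WT + AAV-GFP. *Pmp22* was higher in this KO group (30.2 ± 3.31 against 25.5 ± 0.640 CPM, SD, n = 3 each; log2 fold change 0.24, 95% interval -0.04 to 0.52, adjusted p = 0.700 from edgeR). It was 1 of 8 members without overlap, where 13.2% of all tested genes were. *Sox10* was at -0.87 (95% interval -1.95 to 0.20, adjusted p = 0.727 from edgeR), *Ngfr* at 0.49 and *Mbp* at -0.15 (95% interval -0.37 to 0.07). None of the 8 had an unadjusted p under 0.05 (7.93% of all tested genes), and none was called by edgeR (0.00529%) or DESeq2 (0.831%). This comparison and the one with AAV-GFP share the WT + AAV-GFP mice.

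**Figure D4:**
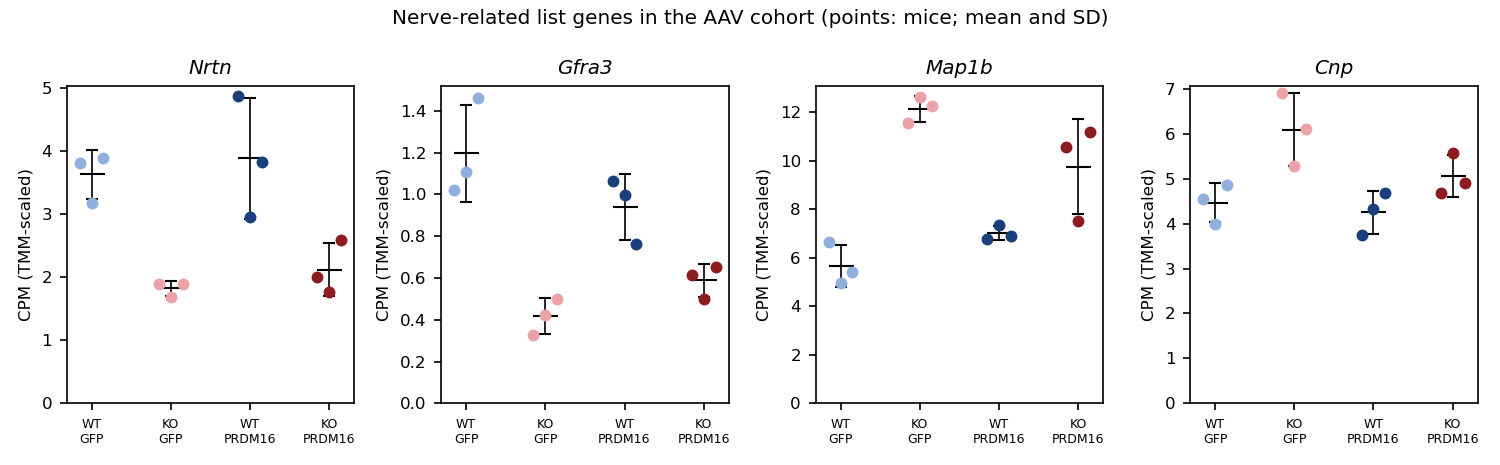
CPM of 4 nerve-related genes outside the member list in the 12 AAV mice (points), with group mean and SD. *Nrtn* and *Gfra3* are lower and *Map1b* higher in each KO mouse than in each WT mouse, while *Cnp* overlaps over both viruses.

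Other genes of nerve and glia were taken as lists chosen with earlier results known, and are given over both viruses of the AAV cohort unless stated. Of 13 peripheral myelin genes beside the members, 9 were tested and edgeR called none. *Cnp*, an enzyme of myelin, was at 0.35 (SE 0.11, adjusted p = 0.108 from edgeR and 0.0315 from DESeq2). *Cnp* had 4.54, 3.99 and 4.85 CPM in WT mice given AAV-GFP and 6.90, 5.28 and 6.10 CPM in KO, and with AAV-PRDM16 it had 3.74, 4.31 and 4.68 CPM in WT and 4.69, 5.58 and 4.91 CPM in KO. It was the most abundant of the list over 22 libraries (5.19 CPM), and *Prx*, which encodes periaxin and steadies the sheath, was at 0.966 CPM. Myelin genes thus lay on both sides, with 3 of 9 higher and 6 lower and a list median of -0.17 against 0.010 for all tested genes.

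Of the lists closest to *Sox10*, 8 of 10 Schwann cell regulators were tested and 0 were called by edgeR or DESeq2, with *Jun*, *Zeb2*, *Nab1* and *Id2* the most abundant and the list median at 0.080. *Egr2*, a regulator of myelination that other cells also induce, had group means of 0.166 to 1.09 CPM in AAV mice, and single untreated libraries ran from 0.184 to 70.5 CPM. Of 9 Schwann cell identity genes 8 were tested and 0 were called by either tool, with the median at 0.0014, led by *Art3* (47.9 CPM) and *Scn7a* (13.5 CPM), which is a sodium channel of non-myelinating Schwann cells. Of 6 genes of neuregulin and ErbB signalling, the axon-to-glia signal, 5 were tested and 0 were called by either tool, and *Erbb3* was at -0.08 (95% interval -0.54 to 0.39). The neural adhesion list (9 of 12 tested) had 0 called by edgeR, and DESeq2, which called 8.38% of all tested genes, called 1 of the 9, *Chl1*, an L1-family adhesion molecule, at -0.73 (adjusted p = 0.0220). *Chl1* had 1.38 and 1.35 CPM in WT and 0.869 and 0.786 CPM in KO (AAV-GFP and AAV-PRDM16 group means), with an adjusted p of 0.0982 from edgeR. The perineurium list (5 of 6 tested) had 0 called by edgeR and 1, *Slc2a1*, by DESeq2 (0.44, adjusted p = 0.00309). The adipocyte neurotrophic list (*Clstn3*, *Nrg4* and *Bmp8b*, 3 of 3 tested) had 0 called by either tool. In the untreated cohort no gene of any of these lists was called by edgeR or DESeq2.

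Over both viruses edgeR called 2.18% of all tested genes and DESeq2 8.38%, and the list counts are read beside these shares. Genes that passed edgeR's test were found among neurotrophic signals and axon genes. Of 17 neurotrophins and their receptors, 13 were tested and 2 fell in KO. *Nrtn*, the GDNF-family ligand neurturin, had 3.82, 3.19 and 3.90 CPM in WT mice given AAV-GFP and 1.89, 1.69 and 1.90 CPM in KO. With AAV-PRDM16 it had 4.88, 2.95 and 3.84 CPM in WT and 2.00, 1.77 and 2.59 CPM in KO. Every KO mouse lay below every WT mouse, and the log2 fold change was -0.94 (SE 0.15, adjusted p = 0.0145 from edgeR). *Gfra3*, the artemin co-receptor carried by sympathetic and sensory neurons, had 1.02, 1.11 and 1.46 CPM in WT mice given AAV-GFP and 0.328, 0.422 and 0.50 CPM in KO. With AAV-PRDM16 it had 1.06, 0.995 and 0.761 CPM in WT and 0.615, 0.50 and 0.651 CPM in KO. It too was free of overlap, at -1.09 (SE 0.21, adjusted p = 0.0248 from edgeR). The *Gfra3* call was lost (adjusted p up to 0.0745) when any 1 of 6 mice was left out, and that of *Nrtn* (adjusted p = 0.0545) without mouse 1 of KO + AAV-PRDM16. The untreated cohort gave 1.11 for *Nrtn* (SE 0.59, adjusted p = 0.346 from edgeR), opposite in sign, and -0.13 for *Gfra3*.

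Of 18 sympathetic axon genes, 5 were tested and 1 rose in KO. *Map1b*, a microtubule protein of growing axons, had 6.65, 4.97 and 5.42 CPM in WT mice given AAV-GFP and 11.6, 12.6 and 12.3 CPM in KO. With AAV-PRDM16 it had 6.80, 7.37 and 6.91 CPM in WT and 10.6, 7.52 and 11.2 CPM in KO. The log2 fold change was 0.79 (SE 0.11, adjusted p = 0.00838 from edgeR), with no overlap between genotypes, and with AAV-GFP alone it was 1.10 (adjusted p = 0.0326 from edgeR). In the untreated cohort *Map1b* overlapped, at 3.27 to 11.9 CPM in WT and 2.01 to 14.6 CPM in the libraries labelled KO. *Th*, the rate-limiting enzyme of noradrenaline synthesis, was at 0 counts in all but 1 of 22 libraries. Sympathetic neurons keep their cell bodies in ganglia outside the fat. In the same contrast edgeR called 4 of 8 macrophage and 3 of 8 fibroblast genes higher and 2 of 8 brown adipocyte genes lower in KO, and fibroblasts can also express *Map1b*. The part of these cells in the *Nrtn*, *Gfra3* and *Map1b* results was not tested. The neuromuscular junction and denervation list (7 genes, 1 tested in the AAV cohort) summed to at most 0.358 CPM in AAV mice. In the untreated cohort it summed to 0.0863 to 2.48 CPM in WT and 0.318 to 7.33 CPM in the libraries labelled KO, which overlap.

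The genes most like the members were found by centring each library's mean log2 CPM of the 8 members on its group and correlating it with each of 13559 other genes in each cohort. The 10 with the highest smaller r of the 2 cohorts were *Gfra4* (r = 0.84 in 10 untreated and 0.84 in 12 AAV libraries), *Hyi* (0.83 and 0.88), *Rtl8c* (0.84 and 0.83), *Nsg1* (0.81 and 0.87), *Arhgef10l* (0.81 and 0.88), *Serpinf1* (0.84 and 0.79), *Prkar1b* (0.79 and 0.80), *Cx3cl1* (0.88 and 0.77), *Gpr153* (0.76 and 0.83) and *Col6a1* (0.75 and 0.78). This is a description only, since all genes of a library share its depth and dissection. Among the members themselves *L1cam* followed the mean most closely (0.74 and 0.90), while *Pmp22* (-0.02 and 0.31), *Cdh19* (0.05 and 0.38) and *Mbp* (0.55 and 0.06) did so in neither or 1 cohort. Each member is part of that mean, which raises its own r, and more so for genes that vary more. Of 56 relations between pairs of members within a cohort, none had an adjusted permutation p at or under 0.05, the lowest being 0.418 for Pearson's r and 0.398 for Spearman's rho. Without centring, the r farthest from 0 was 0.69, between *Ncam1* and *L1cam* in the 10 untreated libraries (permutation p = 0.0303, adjusted 0.418; rho = 0.59, permutation p = 0.0798; r = 0.65 without the 2 farthest libraries). Centred on the group means, r in the 12 AAV libraries ran from -0.52 (*Sox10* and *Cdh19*) to 0.88 (*Pmp22* and *Ncam1*). *Mbp* and *Pmp22* had 0.85 there, against -0.33 uncentred. The centred values were not tested.

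**Figure D5:**
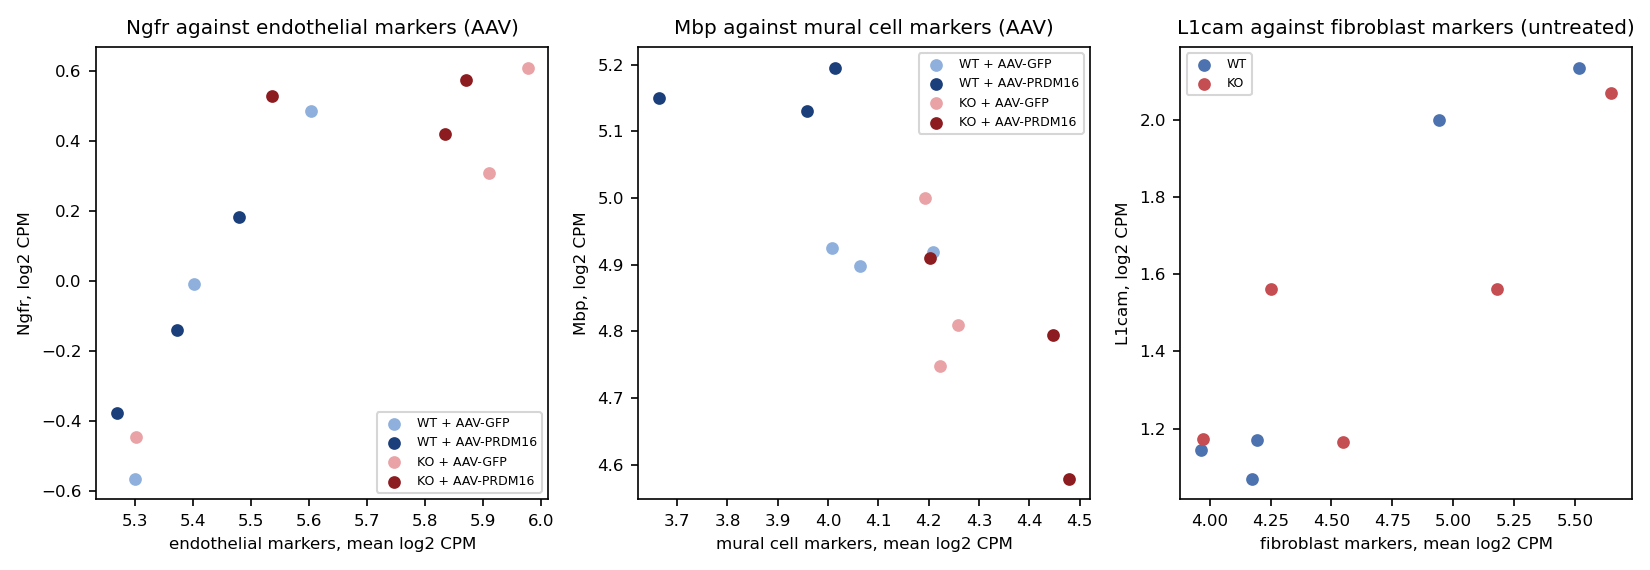
Log2 CPM of *Ngfr* against endothelial markers and of *Mbp* against mural cell markers in 12 AAV libraries, and of *L1cam* against fibroblast markers in 10 untreated libraries. Points are libraries, colours are groups, and r is 0.84, -0.82 and 0.88. The r of *L1cam* with T cell markers in the same 10 libraries, not plotted, is 0.83.

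Each member was also set against 9 lists of other cell types and of nerve in each cohort, 144 relations in all. *Ngfr* went up and down with the endothelial list over the 12 AAV libraries (r = 0.84, permutation p = 0.00163, adjusted 0.105; rho = 0.88, p = 0.000490, adjusted 0.0410), with r = 0.86 without the 2 libraries farthest from the median and 0.83 with each group centred on its mean. *Ngfr* and the endothelial list were unrelated in that way in the untreated cohort (r = -0.10). *Mbp* ran opposite to the mural cell list in the AAV cohort (r = -0.82, permutation p = 0.000990, adjusted 0.105; rho = -0.87, p = 0.000570, adjusted 0.0410; r = -0.72 without the 2 farthest libraries). Centred on the group means it was -0.38, so that relation lay largely between the groups. *L1cam* went up and down with the fibroblast list over the 10 untreated libraries (r = 0.88, permutation p = 0.00218, adjusted 0.105; rho = 0.83, p = 0.00506, adjusted 0.0963; r = 0.71 without the 2 farthest, 0.88 centred), and had r = 0.12 in the AAV cohort. That relation was not particular to fibroblast genes. In the same libraries *L1cam* had r = 0.83 with the T cell list (rho = 0.85, 0.84 without the 2 farthest, 0.91 centred). It had r = 0.76 with the macrophage list, 0.63 with white adipocyte genes and -0.45 with brown adipocyte genes.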

How the data were processed

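mRNA libraries of BAT were made by the authors with the SureSelect XT HS2 kit. The submitters' processing notes name bcl2fastq 2.20, Trimmomatic 0.36, HISAT2 and GRCm38.p6, while the counting tool, annotation release, strand and handling of molecular identifiers are not given in the sources used here. The authors deposited 1 table of counts per cohort, whole numbers per Ensembl gene without normalization. Overlapping and antisense genes, and transcripts of 1 gene, are therefore not told apart. Symbols, positions and exon lengths came from GENCODE M21 (55141 of 55487 identifiers matched), promoters from RefSeq.

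Counts were analysed in R 4.3.3 with edgeR 4.0.16 (filterByExpr, TMM, quasi-likelihood test, two-sided, Benjamini-Hochberg over 17869 untreated or 18899 AAV genes, called at an adjusted p of at most 0.05). Standard errors were the log2 fold change over the square root of F, and 95% intervals used the t quantile of the fit. The 12 AAV libraries shared 1 fit with 4 group means. DESeq2 1.42.0, limma-voom (limma 3.58.1), RLE scaling, no filter, 0.5 CPM in 1 library, left-out mice, the replicate block, and, untreated, removal of WT mice 1 and 2 and a Y-linked covariate were alternatives. Log2 CPM used a prior count of 2, and correlations 100000 permutations. Named are all members and, of each list, up to 4 of the highest mean CPM and those called by edgeR. Some list genes are not reported here. Members and lists were chosen with earlier results of these data known. *Chl1*, *Egr2* and *Th* were named after their values were seen. Replicates are single mice, and floors of 3 counts cover counting error only. The script was tested on simulated data.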

Additional observations from a re-analysis of the deposited data

Results flagged for a closer look

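*Ngfr* in the untreated libraries labelled KO was picked out because 1 mouse stood far from the others. Mouse 5 had 1.90 CPM and the other 4 had 0.427 to 0.749 CPM, a gap past Dixon's 95% critical value of 0.71 for 5 samples. It was the 1 such value among 20 groups checked, those of the members and of *Cpeb2* and *Prdm16*, and chance gives about 1 in 20. The same library also held the highest *Mbp* (76.2 CPM) and *Sox10* (1.17 CPM) of its group. Without it the *Ngfr* log2 fold change was -0.83, against -0.34 with it.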

How the results depend on the processing

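The count of members called stayed at 0 in 145 of 149 settings tried. It was 1 with DESeq2 and 1 with limma-voom, both with AAV-PRDM16 (*Mbp*) and over both viruses (*Sox10* and *Mbp*), and the cause was not tested. Over all tested genes edgeR called 412 over both viruses, DESeq2 1584, limma-voom 1281 and edgeR without the filter 250, and with AAV-PRDM16 these tools called 9 (edgeR), 619 (DESeq2) and 582 (limma-voom). The *Cdh19* difference in untreated mice ran from -1.18 to -0.84 over 18 alternatives, with an unadjusted p under 0.05 in all 18 and an adjusted p from 0.160 to 0.867. *Mbp* with AAV-PRDM16 ran from -0.47 to -0.31 over 19, *Pmp22* from 0.33 to 0.48, and *Sox10* over both viruses from -1.43 to -1.01 over 18. Signs turned where differences were small. *L1cam* in untreated mice was 0.023 with DESeq2, 0.021 with RLE scaling, 0.047 with the Y-linked covariate and 0.0095 with the replicate block. With limma-voom *L1cam* was 0.0013 in the rescue comparison and 0.16 in the interaction, and *S100b* was -0.048 over both viruses. With 1 mouse left out, log2 fold changes crossed 0 as follows. Ranges were -0.17 to 0.15 for *L1cam*, -0.020 to 0.52 for *Mbp* and -0.011 to 0.47 for *Sox10* in untreated mice. The spans were -0.049 to 0.50 for *Ngfr*, -0.025 to 0.21 for *Pmp22* and -0.39 to 0.12 for *L1cam* between genotypes with AAV-GFP. They ran from -0.068 to 0.45 for *Cdh19* between genotypes with AAV-PRDM16. Ranges were -0.36 to 0.17 for *Ngfr*, -0.22 to 0.37 for *Sox10*, -0.37 to 0.15 for *Cdh19*, -0.074 to 0.27 for *S100b* and -0.035 to 0.23 for *L1cam* between viruses in WT. The spans were -0.16 to 0.34 for *L1cam* between viruses in KO. They ran from -0.078 to 0.19 for *Cdh19*, -0.11 to 0.13 for *Ncam1* and -0.11 to 0.029 for *L1cam* in the rescue comparison. Ranges were -0.30 to 0.22 for *Cdh19* and -0.28 to 0.22 for *L1cam* in the interaction. The spans were -0.096 to 0.092 for *S100b* and -0.28 to 0.10 for *Ncam1* between genotypes over both viruses. In all, 49 of 1282 alternative log2 fold changes turned sign.

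Same-numbered mice did not deviate together (r from -0.292 to 0.111 in 5 untreated pairs and -0.0912 to 0.154 in 18 AAV pairs). Differently numbered mice had r from -0.357 to 0.293 (untreated) and -0.232 to 0.211 (AAV). The numbers thus gave no sign of pairing, but a pairing that leaves no shared deviation over all genes cannot be seen this way. With the replicate block 0 members were called in any comparison, and over all genes 344 in place of 412 over both viruses, 5 in place of 9 with AAV-PRDM16 and 1 in place of 10 with AAV-GFP. For *Nrtn*, *Gfra3*, *Map1b* and *Cnp*, whose alternatives were chosen after seeing the data, edgeR's call over both viruses held in 17, 12 and 18 of 18 for the first 3, and *Cnp* was called in 1 of 18. Depth limits *Sox10* most, at 12 to 119 counts in AAV libraries.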
